A study of Mus musculus with 8 samples.

Results

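The mitochondrial ribosome is built from proteins that are encoded in the nucleus, made in the cytosol and imported, and from ribosomal RNA encoded by mitochondrial DNA. It translates the few messenger RNAs of mitochondrial DNA, which encode subunits of the respiratory chain complexes and of ATP synthase. Its small subunit decodes the messenger RNA, and its large subunit forms the peptide bond and sits at the inner membrane, where the new chains are inserted. Many of its proteins have a counterpart in the bacterial ribosome, and others are found in mitochondria only.

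The genes described here are those whose symbol on the array starts with Mrpl or Mrps and a digit, each read by the 1 of its probe sets that had the highest mean over the 8 arrays. The rule found 76 of the 18193 genes on the array, 47 of them named Mrpl and 29 named Mrps. All 76 passed the filter on dim genes, which left 13647 genes for testing. A single probe set read 34 of these genes, and 42 had more than 1.

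The arrays measured RNA of fibroblasts isolated from mouse embryos at E14.5, of strain C57BL6/J. Wild-type cells (Hif-p4h-1+/+) and cells of a Hif-p4h-1-/- line, called knockout here, were each kept in normoxia or in hypoxia, which gives 4 groups of 2 arrays. Hif-p4h-1, encoded by Egln2, is a prolyl hydroxylase that uses oxygen to mark the transcription factor HIF (hypoxia-inducible factor) for breakdown. The -/- genotype is that of the mouse line, so it is not limited to fibroblasts. The oxygen level, the length of the exposure and the number of embryos per culture are not stated in the labels. Of each group, 1 array belongs to a first set and 1 to a second set by its title. No label ties the arrays of a group to separate cultures or embryos. The p-values therefore reflect only how far these arrays differ, which can be technical.

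Values are log2 expression values from RMA, the authors' normalization, which brings all arrays to a common distribution. They cannot show a change shared by all transcripts, nor tell fewer cells of a type from less RNA per cell. The Egln2 probe set read 8.84 and 9.07 (first and second set) in normoxic wild-type cells, 8.0 and 8.34 in normoxic knockout cells, and 8.95 and 9.13 against 8.66 and 8.85 in hypoxia. All 10 fibroblast markers looked at (Col1a1, Pdgfra, Vim and others) passed the filter, with means of 7.25 to 14.4. The mean of 6 macrophage and leukocyte markers was 6.15 to 7.79 in wild-type and 5.35 to 5.67 in knockout normoxic arrays, and 5.88 to 7.35 against 5.17 to 5.65 in hypoxia. The mean of 4 skeletal muscle markers was 7.53 and 7.35 in the normoxic and hypoxic first-set wild-type arrays, and 5.06 to 5.64 in the other 6 arrays. Of the other cell types looked at, 2 of 4 endothelial, 3 of 4 epithelial and 0 of 2 erythroid markers on the array passed the filter.

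The mitochondrial ribosomal protein genes were read brightly. Their mean log2 values ran from 7.04 to 11.91 with a median of 9.92, against 7.71 over all genes tested. The brightest probe sets were those of Mrpl52, Mrps6, Mrpl51, Mrps14 and Mrpl13, and the dimmest those of Mrps27, Mrpl1, Mrpl38, Mrps5 and Mrpl37. These values order the signals of probe sets and not the abundance of transcripts. The median over the 76 genes moved little from array to array. In the first set it was 9.93 in wild-type and 9.95 in knockout normoxia, and 9.88 and 9.91 in hypoxia. In the second set it was 9.84 and 9.85 in normoxia, and 9.77 and 9.84 in hypoxia.

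With hypoxia some of the genes rose, about as many fell, and most differed by little. Over both genotypes, 8 of the 76 rose and 10 fell at a limma adjusted p under 0.05 over all genes tested, the threshold used throughout. These shares of 10.5% and 13.2% lie near the background, since 13.6% of all genes tested were called higher in hypoxia and 15.2% lower. The median log2 difference, hypoxia minus normoxia, was 0.02 over the 76 genes and 0.01 over all genes tested. For 52 of the 76 the difference was under 0.2 in size, and the 58 that were not called lay between -0.26 (Mrpl37) and 0.30 (Mrps27). In all 4 pairs of arrays that share genotype and set, 22 of the genes were higher in hypoxia and 22 were lower, 28.9% each, against 23.8% and 24.5% of all genes tested. With each array centred on its own median, the split over both genotypes was 12 higher to 8 lower in place of 8 to 10. With the mean of all probe sets it tilted the other way, to more falls than rises. The risen Mrpl39, Mrpl41 and Mrps33 and the fallen Mrps7 were then not called, and Mrpl44, Mrps9, Mrpl11 and Mrps35 were called lower. Mrps33, Mrps7 and Mrps35 each have a single probe set, so their own values stayed the same and only their adjusted p changed.

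**Figure D1:**
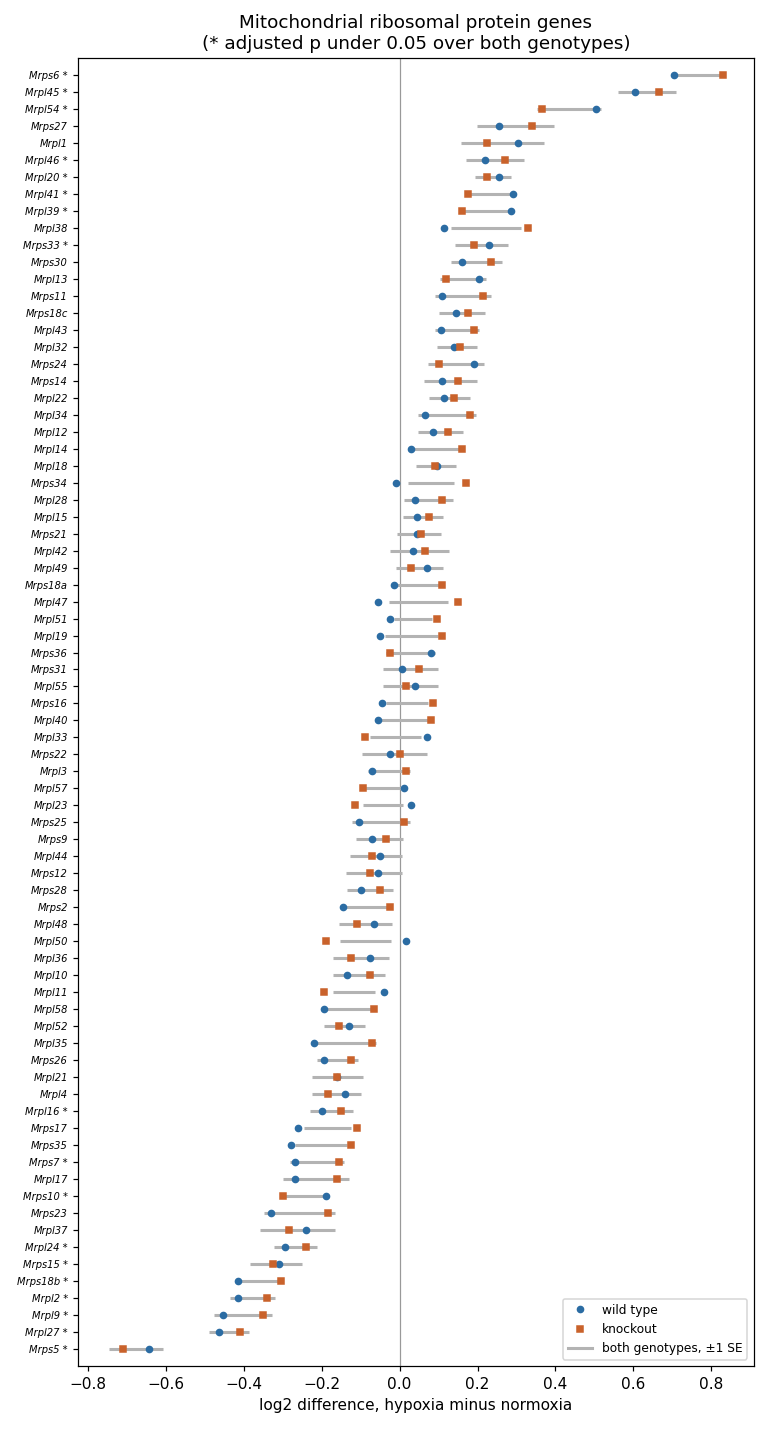
Log2 difference between hypoxia and normoxia (horizontal axis) for each of the 76 genes (vertical axis), in wild type (circles) and in knockout (squares). The grey line is the difference over both genotypes with 1 SE of the fit to each side, and asterisks mark the 18 genes called over both. Mrps6 and Mrpl45 stand at the top and Mrps5 at the bottom, with most genes between -0.2 and 0.2.

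Wild-type cells alone had 6 members called higher and 6 lower, and knockout cells alone had 2 and 4. The background was 7.54% higher and 8.85% lower in wild type, where the members stood at 7.89% each. In knockout it was 4.98% higher and 5.13% lower, against 2.63% and 5.26% of the members. All 6 genes called in knockout were also called in wild type, and all 12 called in wild type were called over both genotypes. Each of the 18 genes called over both had the same sign in wild type and in knockout. With median-centred arrays the knockout split was 2 higher to 2 lower.

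These hypoxia calls rest on the set being a term of the fit, and those of a single genotype also on single arrays. With the set left out of the model, 0 members were called in wild type, in knockout or over both, and 99 of all genes tested were called over both. Without the first-set array of wild-type hypoxia or of wild-type normoxia, 1 member was called higher and 0 lower in wild type. Leaving out any other array gave 3 higher, and 2 lower without the second-set array of wild-type hypoxia. In knockout, without any of its own 4 arrays 1 was called higher and 0 or 1 lower, and 2 were lower without either wild-type normoxia array. Over both genotypes, 11 of the 18 calls were made whichever of the 8 arrays was left out: Mrps6, Mrpl45, Mrpl54 and Mrpl20 among the risen, and Mrps5, Mrpl27, Mrpl9, Mrpl2, Mrps18b, Mrps15 and Mrpl24 among the fallen. Mrpl39, Mrpl41 and Mrps10 were called in 4 of the 8, Mrpl46 and Mrps33 in 2, Mrps7 in 1 and Mrpl16 in 0. The count of risen genes over both fell to 4 without the first-set array of knockout normoxia or of wild-type hypoxia. It fell to 5 without either knockout hypoxia array or the first-set wild-type normoxia array.

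Control probe sets moved with oxygen too. The 3′ probe set of the 18S rRNA control, which reads RNA of the cytosolic ribosome, was at 11.2 to 11.83 in normoxia and 13.86 to 14.2 in hypoxia, higher by 2.03 to 2.78 in each of the 4 pairs. The middle probe set of this control was higher by 1.98 to 2.52, and the 5′ one by 0.52 to 1.97. For the 5′ one the shift was 0.67 (wild type) and 0.52 (knockout) in the first set, and 1.92 and 1.97 in the second. The difference between the 3′ and 5′ probe sets of Actb was larger in hypoxia by 0.10 to 0.17, and that of Gapdh by 0.04 to 0.33. The part of these shifts in the hypoxia differences was not tested.

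Mrps6, the counterpart of a bacterial small-subunit protein, rose most. Normoxic wild-type cells read 11.22 and 10.85 and normoxic knockout cells 11.09 and 10.80 (first and second set). The hypoxic arrays read 11.97 and 11.51 for wild type and 11.85 and 11.70 for knockout. Every hypoxic array lay above every normoxic one. The difference was 0.71 ± 0.082 (SE, adjusted p = 0.0023) in wild type and 0.83 ± 0.082 (adjusted p = 0.0017) in knockout, and over both it was 0.77 ± 0.058, or 1.70-fold (adjusted p = 0.00015). Its second probe set, which went from 10.35 and 10.07 to 10.95 and 10.59 in wild-type cells, rose by 0.64 over both genotypes.

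Mrps6 shares its position with Slc5a3, the gene of a sodium-coupled myo-inositol transporter. In RefSeq (GRCm38.p6) the genes overlap on chromosome 16, and their starts lie 14 bases apart on the same strand. Slc5a3 went from 10.88 and 10.49 in normoxia to 11.79 and 11.41 in hypoxia in wild-type cells, and from 10.69 and 10.39 to 11.68 and 11.60 in knockout cells. It rose by 1.01 ± 0.062 over both genotypes (adjusted p = 5.6e-05), and its further probe sets by 1.30 and 2.20. The probe positions were not used here, so a signal from RNA that the overlapping genes share cannot be told apart from the Mrps6 messenger RNA.

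Mrpl45, a large-subunit protein found in mitochondria only, is related to the import protein Tim44 and holds the ribosome at the inner membrane. Wild-type cells read 9.99 and 9.76 in normoxia and 10.78 and 10.18 in hypoxia. Knockout cells read 9.90 and 9.71 in normoxia and 10.67 and 10.27 in hypoxia. The groups did not overlap, and the rise was larger in the first set of each genotype (0.79 and 0.77) than in the second (0.42 and 0.56). Over both genotypes the difference was 0.64 ± 0.074 (1.55-fold, adjusted p = 0.0009). Mrpl45 had a single probe set, so no further probe set bears on it.

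Mrpl54, another large-subunit protein found in mitochondria only, came next among the risen. In wild type it went from 8.77 and 9.17 in normoxia to 9.49 and 9.46 in hypoxia, and in knockout from 8.95 and 9.27 to 9.44 and 9.51. The 4 hypoxic values lay within 0.07 of each other, while the normoxic values differed between the sets. The difference over both was 0.44 ± 0.082 (1.35-fold, adjusted p = 0.0059). A dim second probe set of Mrpl54, with a mean of 4.45, showed 0.02.

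The other 5 risen genes moved by 0.21 to 0.25. Mrpl20, the counterpart of a bacterial protein needed for large-subunit assembly, read 10.95 and 10.83 in normoxic wild type, 10.87 and 10.83 in normoxic knockout, 11.21 and 11.08 in hypoxic wild type and 11.13 and 11.02 in hypoxic knockout. The small shift of 0.24 was regular, with no overlap between oxygen conditions (adjusted p = 0.0061). Mrpl41, of the mitochondrial-only group, lay between 9.93 and 10.05 in normoxia and between 10.11 and 10.39 in hypoxia, a difference of 0.23 (adjusted p = 0.017). Mrpl46 (0.25, adjusted p = 0.042) and Mrpl39 (0.22, adjusted p = 0.022), from the same group, and Mrps33 (0.21, adjusted p = 0.049), a small-subunit protein found in mitochondria only, had normoxic and hypoxic values that overlapped.

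Mrps5, which in bacteria lines the entry path of the messenger RNA into the small subunit, fell most. Wild-type cells read 8.68 and 8.33 in normoxia and 7.99 and 7.73 in hypoxia, and knockout cells 8.49 and 8.27 against 7.86 and 7.48. No hypoxic value reached the lowest normoxic one. The difference was -0.65 ± 0.097 in wild type (adjusted p = 0.0056) and -0.71 ± 0.097 in knockout (adjusted p = 0.0064), and -0.68 ± 0.069 over both (1.60-fold lower, adjusted p = 0.0005). The 4 further probe sets of Mrps5 differed: 1 fell by 0.35 (adjusted p = 0.036), and the others, not called, stood at -0.21, -0.03 and 0.03. The probe set used is the brightest of the 5.

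Mrpl27, the counterpart of a bacterial protein that reaches the peptidyl transferase centre, was the next. Wild-type cells went from 10.56 and 10.50 in normoxia to 10.06 and 10.07 in hypoxia, and knockout cells from 10.62 and 10.50 to 10.22 and 10.08. Both sets and both genotypes moved alike, by -0.44 ± 0.052 over both (1.35-fold lower, adjusted p = 0.0009), and the sets did not differ for this gene (-0.08, adjusted p = 0.26). A dimmer second probe set was lower by 0.22 and not called.

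Mrpl9, the counterpart of a long bacterial protein that reaches out from the large subunit, had 3 probe sets and all fell. The brightest went from 10.19 and 9.66 to 9.59 and 9.35 in wild type, and from 10.02 and 9.69 to 9.56 and 9.45 in knockout. Hypoxic and normoxic values did not overlap, and the difference over both was -0.40 ± 0.074 (adjusted p = 0.0053). The other probe sets, in a fit over all probe sets, showed -0.77 and -1.09, so that the brightest showed the smallest difference of the 3.

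Mrpl2, whose bacterial counterpart is among the proteins nearest to the peptidyl transferase centre, went from 10.44 and 10.08 in normoxia to 10.03 and 9.66 in hypoxia in wild-type cells. The knockout values were 10.25 and 10.10 in normoxia and 9.97 and 9.70 in hypoxia. The normoxic values all lay above the hypoxic ones, the closest being 10.08 and 10.03, and the difference was -0.38 ± 0.058 (adjusted p = 0.0025). Mrps18b, 1 of the 3 mammalian relatives of a single bacterial protein, fell from 9.87 and 9.89 to 9.40 and 9.53 in wild type and from 9.68 and 9.86 to 9.39 and 9.54 in knockout (-0.36 ± 0.056, adjusted p = 0.0026). Its relatives Mrps18a (0.05, adjusted p = 0.64) and Mrps18c were not called.

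The remaining 5 falls were smaller. Mrps15 lay between 10.28 and 10.63 in normoxia and between 9.83 and 10.46 in hypoxia, an overlap between the sets and not within them, with a difference of -0.32 ± 0.066 (adjusted p = 0.0092). Mrpl24 went from 9.89 and 10.23 in normoxia to 9.59 and 9.94 in hypoxia in wild-type cells, and from 9.97 and 10.16 to 9.70 and 9.95 in knockout cells (-0.27 ± 0.055, adjusted p = 0.0085). It overlaps Rrnad1 in RefSeq, which also fell, by 0.47 (adjusted p = 0.010), and reads of RNA shared by such neighbours cannot be told apart here. Mrps10 (-0.25, adjusted p = 0.017), Mrps7 (-0.21, adjusted p = 0.0497) and Mrpl16 (-0.18, adjusted p = 0.048) were the last. Mrps7, whose bacterial counterpart organizes the head of the small subunit, and Mrpl16 passed the threshold by a small margin.

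**Figure D2:**
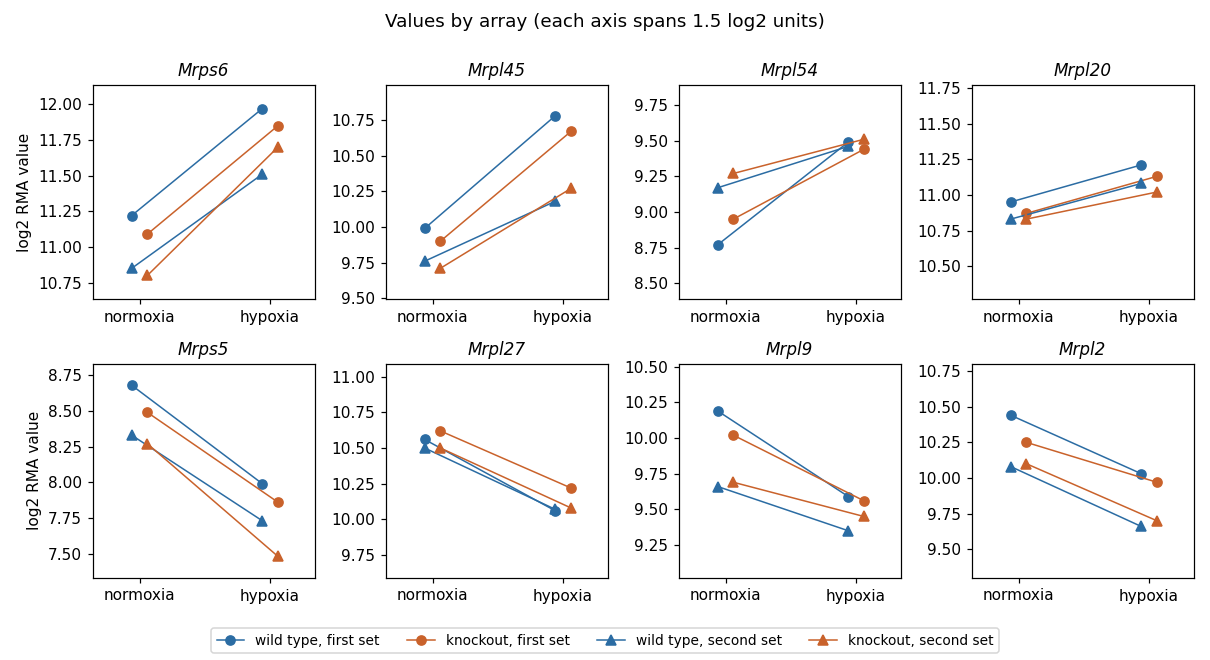
Log2 RMA value (vertical axis) in normoxia and hypoxia for 8 of the genes called over both genotypes, with 1 point per array and a line joining the arrays of one genotype and set. Colours stand for genotype, circles for the first and triangles for the second set, and every panel spans 1.5 log2 units. In each panel all 4 lines run the same way, and for Mrps6 the hypoxic values of 11.51 to 11.97 lie above the normoxic ones of 10.80 to 11.22.

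Further probe sets of the called genes were looked at as well. Of the 18 genes, 9 had a further probe set above the filter, 3 of them (Mrps6, Mrps5 and Mrpl9) had one called in the same direction, and 0 had one called in the other. Over all 76 genes, 0 had probe sets called in opposite directions. Of all genes tested, 28.7% were called over both genotypes, and the share called among all further probe sets of the array was not counted.

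A further probe set was called for 6 of the 58 genes that were not called on the brightest one, lower for 5 of them and higher for 1, and these are named after their values were seen. How often this occurred over all genes tested was not counted. Mrpl44 had 2 such probe sets, at -0.98 (limma adjusted p = 0.00027) and -0.45 (adjusted p = 0.0067). The first of them went from 7.71 and 7.73 to 6.56 and 6.73 in wild type and from 7.55 and 7.67 to 6.75 and 6.69 in knockout, with no overlap between oxygen conditions. Mrps9 had a probe set at -1.16 (adjusted p = 0.0021), and Mrpl15, at 0.06 on its brightest, had 2 lower ones at -0.60 and -0.35. A probe set of Mrpl3 stood at -0.54, 1 of Mrps23 at -0.21 and 1 of Mrpl13 at 0.29. With the mean of all probe sets taken for each gene, Mrpl44, Mrps9, Mrpl11 and Mrps35 were called besides 14 of the 18. For Mrpl44, Mrps9 and Mrpl11 the call thus depends on which probe set reads the gene. Mrps35 has a single probe set, so its own values did not change.

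Of the 76, 19 overlap another protein-coding gene in RefSeq, and 1 of them was called higher and 4 lower over both genotypes. The other 57 overlap none, with 7 called higher and 6 lower. The background over all genes tested was 13.6% higher and 15.2% lower. Whether members that overlap a gene differ from those that overlap none was not tested. Mrpl2 overlaps Klc4 (-0.17, adjusted p = 0.18) and Mrpl27 overlaps Eme1 (-0.09, adjusted p = 0.60), neither of which was called.

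The calls are given here by class of ribosomal protein. Over all genes tested, 13.6% were called higher and 15.2% lower. Among 20 large-subunit proteins found in mitochondria only, 5 rose (Mrpl45, Mrpl54, Mrpl46, Mrpl41 and Mrpl39) and 0 fell, and the median difference was 0.05. Among 29 large-subunit proteins with a bacterial counterpart, 1 rose (Mrpl20) and 5 fell (Mrpl27, Mrpl9, Mrpl2, Mrpl24 and Mrpl16), with a median of -0.01. Among 17 small-subunit proteins with a bacterial counterpart, 1 rose (Mrps6) and 5 fell (Mrps5, Mrps18b, Mrps15, Mrps10 and Mrps7), with a median of -0.07. Among 9 small-subunit proteins found in mitochondria only, 1 rose (Mrps33) and 0 fell, with a median of -0.01. Mrps18b was counted here among the proteins with a bacterial counterpart while its relative Mrps18a was placed with the mitochondrial-only ones, and Mrps18b could be placed there too. The counts also depend on the probe set used. In the mitochondrial-only classes, further probe sets of Mrpl44 (-0.98 and -0.45) and Mrps23 (-0.21) were called lower. With the mean of all probe sets, Mrpl39 and Mrpl41 were no longer called, while Mrpl44 was called lower. Mrps33 was no longer called either and Mrps35 was called lower, but each has a single probe set, so their own values did not change. The difference between the classes was not tested.

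**Figure D3:**
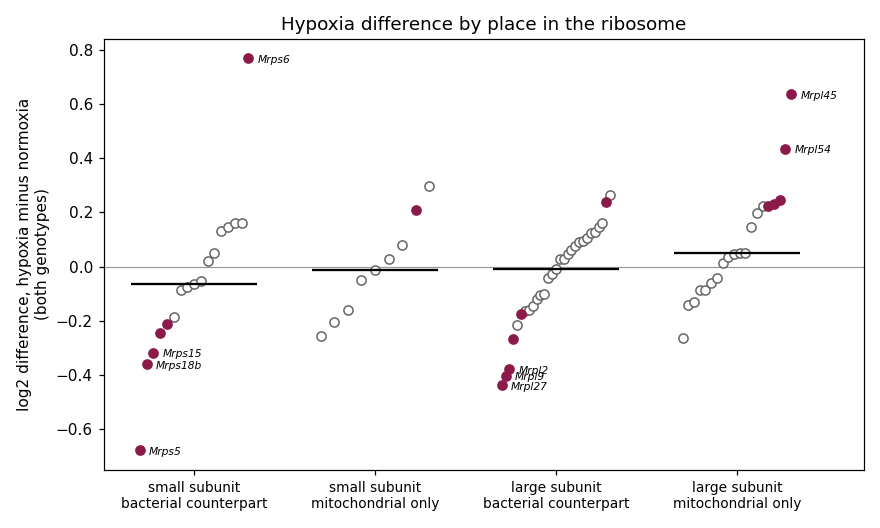
Log2 difference between hypoxia and normoxia over both genotypes (vertical axis) for 75 genes, grouped by subunit and by whether a bacterial counterpart exists. Each point is a gene on its brightest probe set, filled where it was called, and bars mark the medians, which lie between -0.07 and 0.05. Filled points lie below 0 in the groups with a bacterial counterpart, apart from Mrps6 and Mrpl20, and above 0 in the other groups.

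Several members with further roles did not pass the test in hypoxia. Mrpl12, a stalk protein that also binds the mitochondrial RNA polymerase, showed 0.11 (adjusted p = 0.22). Mrps30, named for the small subunit but part of the large one, showed 0.20 (adjusted p = 0.057) and was higher in 4 of 4 pairs. Mrpl44, which resembles ribonuclease III, showed -0.06 (adjusted p = 0.56) on its brightest probe set, though 2 dimmer ones were called lower, as described with the further probe sets above. Mrps22, in humans a gene of inherited mitochondrial disease, showed -0.01 (adjusted p = 0.93), and Mrps12, a protein of the decoding centre, -0.07 (adjusted p = 0.56). Mrps36, now placed in the 2-oxoglutarate dehydrogenase complex and left out of the classes, showed 0.03 (adjusted p = 0.79). The dimmest of the genes, Mrps27, a small-subunit protein with pentatricopeptide repeats, went from 6.74 and 7.23 to 7.20 and 7.28 in wild type and from 6.56 and 7.05 to 7.05 and 7.24 in knockout (0.30 ± 0.099, adjusted p = 0.055). Mrpl1, which is at the stalk through which tRNAs leave, and Mrpl38 stood at 0.27 (adjusted p = 0.10) and 0.22 (adjusted p = 0.10).

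Sequence around the start sites of the genes that moved is shown because factors known to regulate nuclear genes of mitochondria bind there. These include NRF1, the GA-binding protein of the ETS family, YY1 and Myc, and HIF binds a short core in hypoxia. RefSeq windows of 300 bases on GRCm38.p6, from 250 bases before the start to 50 after it, were at hand for 67 of the 76 genes. Windows of the 2 largest rises with a window and of 5 falls follow, 5′ to 3′ along the gene's strand, with matches to the searched motifs in capitals. Mrps6 lies at chr16:92058086-92058385 (+ strand), Mrpl45 at chr11:97315466-97315765 (+), Mrps5 at chr2:127587176-127587475 (+), Mrpl27 at chr11:94653541-94653840 (+), Mrpl9 at chr3:94443086-94443385 (+), Mrpl2 at chr17:46645971-46646270 (+) and Mrps18b at chr17:35916391-35916690 (- strand).
Mrps6: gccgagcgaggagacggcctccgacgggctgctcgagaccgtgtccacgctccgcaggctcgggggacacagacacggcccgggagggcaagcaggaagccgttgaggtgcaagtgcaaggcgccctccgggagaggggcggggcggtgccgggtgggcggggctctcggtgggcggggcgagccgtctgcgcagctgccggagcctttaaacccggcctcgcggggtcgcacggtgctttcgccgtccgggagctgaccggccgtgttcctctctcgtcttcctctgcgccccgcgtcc
Mrpl45: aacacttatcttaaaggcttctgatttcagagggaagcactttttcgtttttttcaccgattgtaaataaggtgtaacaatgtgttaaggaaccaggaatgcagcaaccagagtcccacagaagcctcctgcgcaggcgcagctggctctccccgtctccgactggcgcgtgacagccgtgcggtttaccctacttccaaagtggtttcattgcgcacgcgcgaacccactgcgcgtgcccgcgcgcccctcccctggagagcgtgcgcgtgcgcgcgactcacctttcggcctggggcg
Mrps5: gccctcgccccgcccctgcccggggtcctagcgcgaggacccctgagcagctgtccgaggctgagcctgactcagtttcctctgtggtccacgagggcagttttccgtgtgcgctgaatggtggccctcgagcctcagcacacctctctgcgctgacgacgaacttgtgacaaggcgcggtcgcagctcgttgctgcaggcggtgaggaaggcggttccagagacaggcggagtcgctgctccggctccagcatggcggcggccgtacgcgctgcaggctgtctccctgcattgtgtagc
Mrpl27: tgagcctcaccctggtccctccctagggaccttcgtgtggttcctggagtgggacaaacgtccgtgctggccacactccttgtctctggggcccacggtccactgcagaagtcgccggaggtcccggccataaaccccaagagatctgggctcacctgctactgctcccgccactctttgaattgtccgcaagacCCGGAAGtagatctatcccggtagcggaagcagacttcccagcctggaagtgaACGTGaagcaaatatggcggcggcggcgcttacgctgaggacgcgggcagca
Mrpl9: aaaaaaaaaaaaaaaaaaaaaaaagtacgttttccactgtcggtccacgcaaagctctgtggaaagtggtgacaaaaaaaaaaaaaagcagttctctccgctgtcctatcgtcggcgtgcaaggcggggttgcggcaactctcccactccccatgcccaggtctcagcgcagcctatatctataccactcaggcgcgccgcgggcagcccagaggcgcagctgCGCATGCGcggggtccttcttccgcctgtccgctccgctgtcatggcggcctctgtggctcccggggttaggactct
Mrpl2: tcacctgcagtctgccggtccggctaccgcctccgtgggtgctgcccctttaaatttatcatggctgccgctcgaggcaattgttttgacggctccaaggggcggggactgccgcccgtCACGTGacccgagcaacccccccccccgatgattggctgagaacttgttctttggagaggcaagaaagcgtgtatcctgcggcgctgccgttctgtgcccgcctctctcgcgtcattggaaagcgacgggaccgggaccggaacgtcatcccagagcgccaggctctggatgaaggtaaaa
Mrps18b: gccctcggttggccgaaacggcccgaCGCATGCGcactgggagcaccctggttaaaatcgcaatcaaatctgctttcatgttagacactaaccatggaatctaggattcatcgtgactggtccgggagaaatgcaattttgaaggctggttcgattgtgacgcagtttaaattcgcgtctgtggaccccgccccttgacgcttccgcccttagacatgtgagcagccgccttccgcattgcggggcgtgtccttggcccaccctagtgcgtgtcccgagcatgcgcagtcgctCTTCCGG

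The motifs were searched on both strands as the letters CGCATGCG for NRF1, CCGGAAG for the ETS family, AAGATGGCG for YY1, ACGTG for the HIF core and CACGTG for the E-box that Myc binds. Each CACGTG holds ACGTG on both strands, so the last pair overlap. The HIF core also occurs as GCGTG, which was not searched, so the HIF core matches given here are to ACGTG only. The other motifs too were searched only in the single form given, so a site that differs from it by a letter was not counted. The ETS motif was in 34.2% of the 73 windows of the members, against 8.86% of all 32851 windows and 11.6% of the 21263 windows of protein-coding genes. The NRF1 motif was in 9.59% of the members' windows, 1.87% of all and 2.52% of the coding ones. The YY1 motif was in 11% against 1.4% and 1.83%, the HIF core in 26% against 19.6% and 20.9%, and the E-box in 9.59% against 7.15% and 7.84%.

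Matches in the genes that moved with oxygen are given here, and their shares were not tested against those of the other members. Of 7 risen genes with a window, 1 held the HIF core as ACGTG (Mrpl20), as did 2 of 10 fallen ones (Mrpl2 and Mrpl27). The E-box was in Mrpl20 and Mrpl2. The NRF1 motif was in Mrpl39 among the risen and in Mrpl9 and Mrps18b among the fallen. The ETS motif was in Mrps33, and in Mrpl27 and Mrps18b. The windows of Mrps6, Mrpl45 and Mrps5, which differed most between oxygen conditions, held no match to any of the 5 motifs as searched. The form GCGTG, which was not searched, does stand in the Mrpl45 window, and on the other strand in the Mrps6 window. The Mrpl45 window also holds CGCACGCG, which is 1 letter off the NRF1 motif as searched. A match is a description of letters in this window and shows no binding.

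Genotype moved none of the genes past the threshold. In normoxia 0 of 76 were called between knockout and wild type, against 0.0366% of all genes tested, and the lowest adjusted p was 0.71. At an unadjusted p under 0.05 there were 3. They were Mrpl47 at -0.28 (adjusted p = 0.71), Mrps35 at -0.24 (adjusted p = 0.73) and Mrpl33 at 0.24 (adjusted p = 0.73). Mrpl47 read 10.58 and 10.19 in wild type, against 10.17 and 10.04 in knockout cells, so that the second-set wild-type and the first-set knockout values nearly met. Mrpl33, at 10.23 and 10.26 against 10.49 and 10.48, did not overlap. Next in size were Mrpl54 (0.14, adjusted p = 0.84) and Mrpl10 (0.12, adjusted p = 0.83) above 0, and Mrpl40 (-0.21, adjusted p = 0.77) below.

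More members were lower than higher in normoxic knockout cells, though 1 array decides whether their median lies below 0. Of the 76, 54 were lower in knockout and 22 higher, with a median of -0.06. The share above 0 was 28.95%, against 42.98% of all genes tested, which leaned down too. Within the first set the median was -0.09 (all genes tested, -0.04), and within the second it was -0.02 (all genes, -0.01). Without the first-set knockout array in normoxia the median was 0.01, and without the second-set one it was -0.11. The macrophage and leukocyte marker level was lower in normoxic knockout cells within both sets, at 5.67 against 7.79 in the first and 5.35 against 6.15 in the second. The muscle marker level was lower in knockout in the first set (5.06 against 7.53) and not in the second (5.49 against 5.37). The part of these markers was not tested.

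In hypoxia 0 members were called between the genotypes, against 0.0293% of all genes, and 0 had an unadjusted p under 0.05. The highest were Mrpl10 at 0.175 (adjusted p = 0.88), Mrpl17 at 0.145 (adjusted p = 0.91), followed by Mrps17 and Mrpl34, which tied at 0.105 (adjusted p = 0.90 and 0.92). The lowest were Mrps5 at -0.19 (adjusted p = 0.88), Mrpl44 at -0.165 (adjusted p = 0.89) and Mrpl1 at -0.135 (adjusted p = 0.93). Over both oxygen conditions 0 were called by limma (background 0.256%), with 4 at an unadjusted p under 0.05, namely Mrpl33, Mrpl44, Mrpl47 and Mrps35. All 76 differences over both were under 0.2 in size. The interaction, the hypoxia difference of knockout minus that of wild type, gave 0 calls by limma among the members and 0.0% among all genes, and 0 members had an unadjusted p under 0.05. With this spread, genotype differences of the size seen here could not be called, which does not show that the genotypes are alike.

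Mrps12 lies on chromosome 7, as Egln2 does, with 56 protein-coding genes between them. Normoxic arrays read 9.84 and 10.30 for Mrps12 in wild type, against 9.96 and 10.38 in knockout cells, a difference of 0.10 (adjusted p = 0.86). Mrpl46, Mrps11, Mrpl48, Mrpl17 and Mrpl23 lie farther off on the same chromosome and were not called either. The 76 genes lie on 17 chromosomes, with 11 on chromosome 11.

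The sets differed more than the oxygen conditions for many members. Between the second and the first set 8 of the 76 were called higher and 29 lower, or 10.5% and 38.2%, against 25.4% and 20.7% of all genes tested. The median difference, second minus first set, was -0.08 over the members and 0.03 over all genes. In all 4 groups, 37 were lower in the second set and 12 higher, or 48.7% and 15.8%, against 25.2% and 31.8% of all genes. With median-centred arrays the split was 15 higher to 25 lower, and the medians were -0.02 and 0.09. By group the median ran from -0.02 in knockout normoxia to -0.19 in wild-type hypoxia. Mrps21, called higher in the second set at 0.25 (adjusted p = 0.0078), was called lower at -0.30 (adjusted p = 0.011) with the mean of all its probe sets. That mean takes in a dim probe set of mean 3.92, below the filter, while the probe set used had a mean of 10.1.

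Some markers of cell types moved between the sets as well. In normoxic wild-type cells Myog read 8.04 in the first and 3.48 in the second set, Actc1 10.04 and 6.82, Tyrobp 8.35 and 6.57, and the fibroblast gene Lum 9.69 and 6.09. Other muscle and fibroblast markers went the other way in these arrays, such as Des (7.07 and 7.29), Thy1 (10.98 and 11.65) and Pdgfrb (11.6 and 12.22). The mean of the fibroblast markers was 11.92 and 11.72. In normoxic knockout cells Lum read 7.89 and 6.44, while Myog was at 3.86 and 3.98. The part of these markers in the set differences was not tested.

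Mrpl11, a protein of the stalk base, was lowest in the second set. It read 9.67, 9.75, 9.65 and 9.52 in the first set (wild-type and knockout normoxia, then wild-type and knockout hypoxia) and 9.21, 9.27, 9.15 and 9.11 in the second. The sets did not overlap, and the difference was -0.46 ± 0.055 (adjusted p = 0.0003). Mrps24 (-0.45, adjusted p = 0.0014) and Mrps15 (-0.42, adjusted p = 0.0012), both small-subunit proteins with a bacterial counterpart, followed. Highest in the second set were Mrpl36, a very small zinc-binding protein in bacteria, at 0.50 ± 0.072 (adjusted p = 0.0008), Mrpl17 at 0.42 (adjusted p = 0.0042) and Mrps27 at 0.31 (adjusted p = 0.031). Mrpl36 read 8.44, 8.60, 8.52 and 8.52 in the first and 9.14, 9.10, 8.91 and 8.93 in the second set.

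Of the 18 genes called with hypoxia, 11 were also called between the sets, and 26 others were called between the sets alone. For 43 of the 76 the set difference was larger in size than the oxygen difference, which is 56.6%, against 60.1% of all genes. What the sets stand for, beyond the word in the titles, is not stated in the labels. The 7 genes called with hypoxia and not between sets were Mrpl27, Mrps18b, Mrpl54, Mrpl20, Mrpl41, Mrpl16 and Mrps33.

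**Figure D4:**
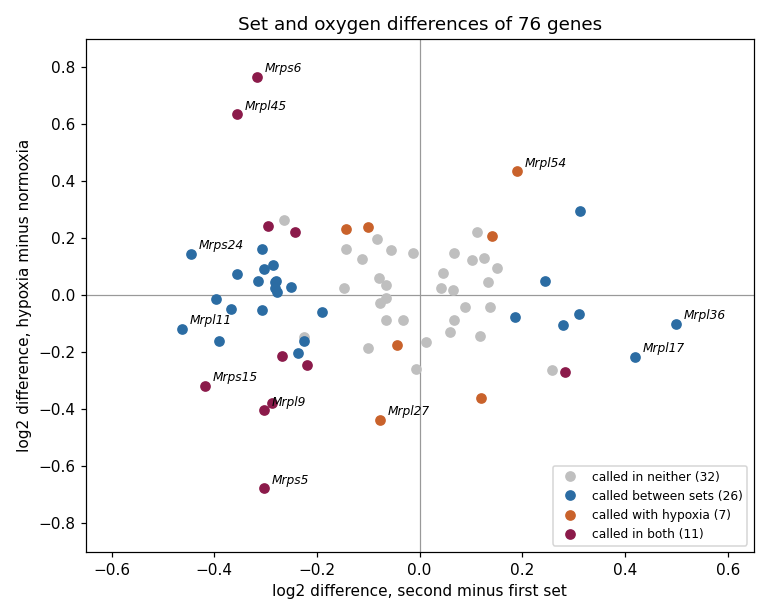
Log2 difference between the second and the first set (horizontal axis) against the log2 difference between hypoxia and normoxia over both genotypes (vertical axis), with 1 point for each of the 76 genes. Colours give the calls: 32 genes in neither contrast, 26 between sets only, 7 with hypoxia only and 11 in both. Most points lie left of 0, where 29 genes were called lower in the second set, and Mrps6, Mrpl45 and Mrps5 stand apart on the vertical axis.

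The other genes of mitochondrial translation, in lists put together for their function, were looked at in the same hypoxia fit over both genotypes. Of 4 further ribosomal proteins under other symbols, 0 were called (Gadd45gip1 at 0.16, adjusted p = 0.096, Dap3 at -0.06, Ptcd3 and Chchd1 at 0.05), with 1 at an unadjusted p under 0.05. Of 27 assembly and rRNA maturation genes, 2 rose and 8 fell, 7.41% and 29.6%, with a median of -0.12. The background for these lists is again 13.6% higher and 15.2% lower. Mtg1, a GTPase of large-subunit assembly, went from 7.70 and 7.98 in normoxia to 6.58 and 7.15 in hypoxia in wild-type cells, and from 7.60 and 7.80 to 6.90 and 7.05 in knockout cells. It fell by 0.85 ± 0.092 (adjusted p = 0.0006). That is larger in size than the difference of any of the 76 genes on its brightest probe set. Noa1, another GTPase of mitochondrial translation, rose by 0.60 (adjusted p = 0.0017), and Ngrn and the rRNA methyltransferase Nsun4 each stood at -0.41 (adjusted p = 0.0038 and 0.0061).

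Of 15 translation factors, 1 rose and 2 fell, 6.67% and 13.3%. Gfm1, the elongation factor that moves the ribosome along, went from 10 and 9.55 to 9.37 and 9.02 in wild type and from 9.88 and 9.52 to 9.51 and 9.0 in knockout (-0.51 ± 0.058, adjusted p = 0.0007). Gfm2, which acts in ribosome recycling, showed -0.41 (adjusted p = 0.0081), and Pdf, the peptide deformylase, 0.34 (adjusted p = 0.012). Of 19 aminoacyl-tRNA synthetases and related enzymes, 1 rose and 4 fell, 5.26% and 21.1%. Rars2, which charges arginine tRNA, went from 9.10 and 8.99 in normoxia to 8.12 and 8.06 in hypoxia in wild-type cells, and from 9.13 and 8.91 to 8.30 and 7.99 in knockout cells. It fell by 0.92 ± 0.069 (adjusted p = 0.00015), while the tyrosine enzyme Yars2 rose by 0.32 (adjusted p = 0.0075).

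Of 14 genes of mitochondrial DNA and transcription, 0 rose and 4 fell, 0% and 28.6%, among them Pnpt1, the polynucleotide phosphorylase that degrades mitochondrial RNA, at -0.51 (adjusted p = 0.0017), and Hsd17b10, which is part of the tRNA-processing ribonuclease, at -0.31 (adjusted p = 0.0052). Of 10 tested regulators of mitochondrial genes, 3 rose and 2 fell, 30% and 20%. Mxi1, an antagonist of Myc and a known HIF target, went from 6.83 and 6.99 in normoxia to 8.10 and 8.66 in hypoxia in wild-type cells and rose by 1.37 ± 0.11 over both genotypes (adjusted p = 0.0002). Myc rose by 0.50 (adjusted p = 0.0008) and Yy1 by 0.24 (adjusted p = 0.014). Nrf1 fell by 0.34 (adjusted p = 0.041) and Gabpb1, a subunit of the GA-binding protein, by 0.26 (adjusted p = 0.037).

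Cytosolic ribosomal proteins and complex I, the largest respiratory complex, served as the closest comparisons. Of 48 cytosolic ribosomal proteins tested, 5 rose and 4 fell (10.4% and 8.33%) with a median of 0.03. Of 35 complex I genes, 3 rose and 4 fell (8.57% and 11.4%) with a median of 0. Their shares, like those of the mitochondrial ribosomal proteins, lie near or below the background of 13.6% and 15.2%. Between the sets, 22.9% of the cytosolic ribosomal proteins and 45.7% of the complex I genes were called, against 48.7% of the mitochondrial ribosomal proteins and 46.1% of all genes tested. The differences between these lists were not tested.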

How the data were processed

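RNA of 8 samples was read on one-colour Affymetrix arrays. The deposited log2 values come from RMA, per the submitters' processing notes, with no version given. That they are log2 follows from their range (2.09 to 14.71). Of 45037 probe sets other than 64 controls, 34945 had 1 symbol in the platform annotation. A further 932 had several and were left out, and 9160 stayed unnamed. RefSeq (GRCm38.p6) supplied current symbols by Entrez identifier. Array medians lay between 5.01 and 5.12, and the number of arrays limits the precision.

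R 4.3.3 and limma 3.58.1 fitted the 4 groups with the set as a block, with eBayes and a mean-variance trend, to genes at or above the 25th percentile of the mean (4.17). Every adjusted p is Benjamini-Hochberg over these 13647 genes and two-sided, except those of further probe sets, which come from the same fit over all probe sets. Residual degrees of freedom were 3, with 5.22 added by moderation. The fit was tested on simulated data. The set pairs the arrays, per the titles, and second-minus-first differences correlated at 0.710 to 0.850 across genes between groups.

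The members and lists were chosen with earlier results of these data known. The text names members called in a contrast, the 3 highest and 3 lowest of the simple contrasts and of the set, the 5 brightest and 5 dimmest, some members with further roles, and up to 4 genes of each list by adjusted p. Alternatives were the filter, the normalization, the mean of all probe sets, the moderation, the block and leaving out each array. Per-sample columns not used numbered 0.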

Additional observations from a re-analysis of the deposited data

Results flagged for a closer look

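The genotypes had opposite signs with hypoxia for 4 of the 76 genes, in both sets each time. The share of all genes tested with such signs was not counted. Some of these differences were as small as the last digit of the values, such as 0.01 in both wild-type pairs of Mrpl57. Mrpl23 differed by 0.03 in wild type and -0.115 in knockout, and Mrpl57 by 0.01 and -0.095. Mrpl51 differed by -0.025 in wild type and 0.095 in knockout, and Mrps16 by -0.045 and 0.085. The interaction test of limma, which tests this difference, called none of the 4 (adjusted p = 1 for each).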

How the results depend on the processing

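No difference called with hypoxia changed direction under any alternative, and of the differences called between sets only that of Mrps21 did, from 0.245 to -0.299 with the mean of all probe sets. For Mrps21 that mean takes in a probe set below the filter. Without the replicate block, 0 members were called higher and 0 lower with hypoxia in each genotype and over both. With the set as a random replicate block, 3 were higher in wild type, 2 lower in knockout and 5 higher over both. Without the trend in eBayes the counts were 2 higher in wild type, 1 lower in knockout and 5 higher over both. The mean of all probe sets gave 3 higher in wild type and 5 higher over both. Median-centred arrays gave 2 lower in knockout, and 15 higher in the second set. Leaving out 1 array gave 1 to 3 higher and 0 to 5 lower in wild type, 1 to 2 higher and 0 to 3 lower in knockout, and 4 to 12 higher and 7 to 10 lower over both. Without 1 array the median of the members ran from -0.11 to 0.01 for knockout against wild type in normoxia, and from -0.0333 to 0.0917 for the interaction, which was 0.0425 with all arrays and 0.0584 after quantile normalization again. The other counts and medians of the members stayed within 1.5 times or within the spread between arrays. The causes were not tested, beyond the fewer arrays in the fits without 1 array. No detection calls were used. The dimmest member lay at 7.04, above the filter at 4.17.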

Other observations

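Some probe sets of the platform carry the symbol of a mitochondrial ribosomal protein beside that of another gene, and were not used above. A bright one, shared by Mrpl30 and Gm6238, went from 11.7 and 11.59 in normoxia to 11.53 and 11.47 in hypoxia in wild-type cells, and from 11.67 and 11.65 to 11.45 and 11.43 in knockout cells. All 4 hypoxic values lay below all 4 normoxic ones, by a mean of 0.18 on the log2 scale. The probe set shared by Mrpl53 and Ccdc142 lay between 10.15 and 10.6 with a mean difference of 0.035. That shared by Mrps34 and Nme3 was dim, between 5.1 and 5.42.

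Rab6a, a small GTPase of the Golgi that overlaps Mrpl48 in RefSeq, rose by 0.76 in wild type and 0.39 in knockout (limma adjusted p = 0.0006 and 0.011). Mrpl48 itself stood at -0.09 over both genotypes (adjusted p = 0.40). The neighbours Mrps6 and Slc5a3 rose together, and Mrpl24 and Rrnad1 fell together, whereas Mrpl48 and Rab6a did not share a direction.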
